A study of Mus musculus with 22 samples.

Results

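Flow-through RNA is the RNA of spinal cord tissue that stays in solution after ribosomes of astrocytes have been pulled out by their hemagglutinin (HA) tag. The libraries described are those of wild-type (WT) mice, 4 with a spinal cord injury (WT SCI, animals 9596, 9843, 9874 and 9935) and 4 uninjured (animals 42, 65, 79 and 154), which makes 8 of the 22 libraries of the series. They were chosen by the labels of genotype, condition and RNA type, not by any measured value. The comparison asks how RNA of the tissue outside the tagged astrocytes changes 14 days after injury.

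All mice were young adult females with a Cre recombinase under control of the mouse Gfap promoter and with RiboTag, an allele that puts the HA tag on a ribosomal protein in cells with Cre activity. WT SCI mice had a severe crush at thoracic level 10, and the central 3 mm of the lesion was taken. Uninjured mice carried the same alleles, and the labels name no sham operation. The same 8 animals each gave an HA immunoprecipitate (HA IP), the pulled-down astrocyte ribosomes, to which flow-through is compared at the end. A further 3 flow-through libraries came from injured mice whose Stat3 gene was flanked by loxP sites (STAT3-CKO SCI) and entered the same fit, in which they bear on the spread of each gene, the count filter and the scaling. Cre marks the cells in which the Gfap promoter was active, and RNA of astrocytes that is not on tagged ribosomes stays in flow-through.

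After a crush, resident microglia and macrophages derived from blood monocytes gather in the lesion, engulf dying cells and myelin, and degrade and store the cholesterol and lipid they take up. Astrocytes around the core become reactive and form a border, fibroblast-like cells deposit matrix, and neurons and oligodendrocytes within the core die. Interferons, made by several of these cells, switch on a shared set of genes through transcription factors bound to a short promoter element.

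Depth differed between the groups. WT SCI flow-through libraries held 3898755 to 7189443 counts, of which Rn45s, the ribosomal RNA precursor, took 89.0 to 95.5%. Uninjured libraries held 4904425 to 11242654 counts with 9.49 to 39.7% in Rn45s. Outside Rn45s, Lars2 and Mir6236, rows that collect ribosomal reads, 91626 to 615302 counts remained in WT SCI and 2858044 to 10140612 in uninjured libraries, and 8963 to 12197 genes had a count in WT SCI against 15039 to 16320 in uninjured libraries. Levels are given as CPM, in the animal order above. Counts were scaled by full library size and TMM, then by a common constant to the average size outside these 3 rows. In these units 3 counts equal 5.58 to 32.3 CPM in WT SCI but 0.261 to 0.918 CPM in uninjured libraries. The TMM factors, on library sizes that include the 3 rows, were 0.130 to 0.409 in WT SCI and 3.64 to 5.60 in uninjured libraries. The shift in ribosomal RNA and in depth goes with injury in every library, so its effect on any gene and that of injury cannot be told apart. Animal 9935 was the shallowest library. Among uninjured libraries, animal 42 differed most from the others. Whether animals of a group were processed together is not given by the labels.

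**Figure D1:**
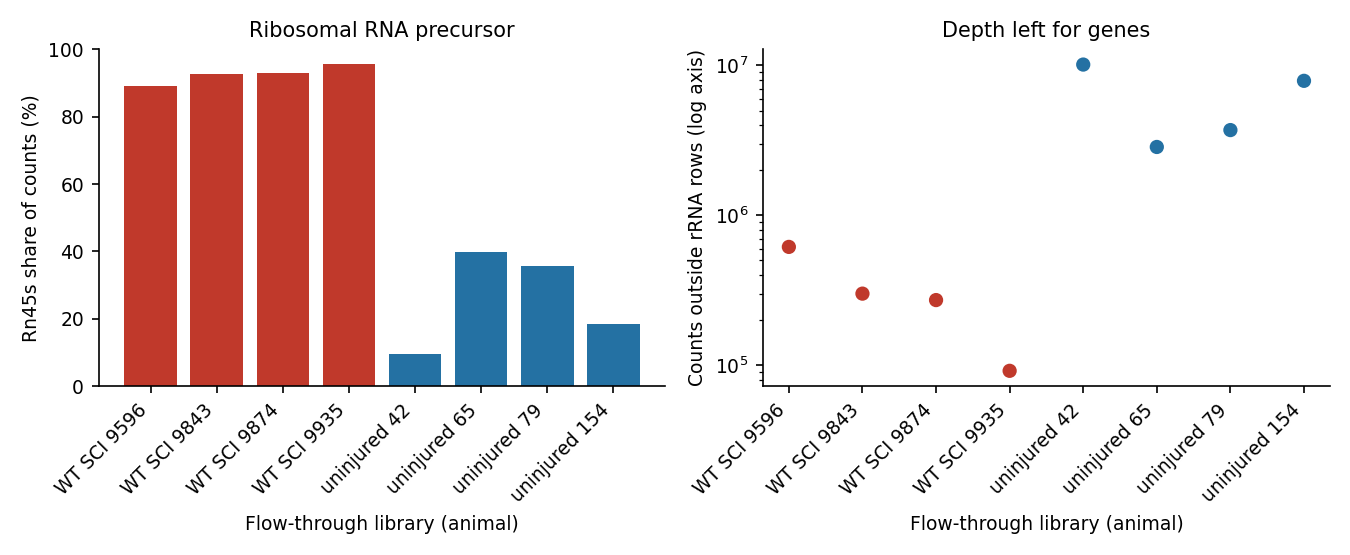
Counts outside the ribosomal rows and the share of counts in Rn45s for each flow-through library, with WT SCI left of uninjured. All 4 WT SCI libraries hold fewer usable counts (91626 to 615302) than any uninjured library (2858044 or more).

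Genes were called by edgeR's quasi-likelihood test, two-sided, at a Benjamini-Hochberg adjusted p under 0.05 over all genes tested. Of 12685 genes tested in flow-through, 3931 differed between the groups, 2120 higher and 1811 lower in WT SCI than in uninjured cord. That is 16.7% of genes called higher and 14.3% called lower, and every count of a gene list below is to be read against these shares. Which direction held more genes depended on the setting, with 1903 higher and 2085 lower under RLE scaling, 1890 and 2067 under TMMwsp scaling, 2154 and 2291 with DESeq2 and 1611 and 2001 with WT libraries alone, where 11619 genes were tested. In 31.3% of genes every WT SCI library lay apart from every uninjured one. Of the called genes, 1186 were over 4-fold higher and 925 over 4-fold lower. Of the 198 genes fitted over 32-fold lower, 189 had 0 counts in all WT SCI libraries, where the fitted fold is no measure of size. The median log2 change over all genes was -0.09, and it lay between -0.33 and -0.04 under the other scalings, filters and gene sets tried, so log2 changes of that size carry no direction. Where leaving out 1 library moved a called log2 change by over 1.5 times on the linear scale or ended the call, the value without that library is given. In the authors' deposited table, 5036 of 17905 genes had a false discovery rate under 0.05, and 3852 of the 3931 genes called here were among them with the same sign. At equal depth, with the counts of every library thinned to 91626, 3071 genes could be tested and 757 were called higher and 643 lower. Where that moved a called log2 change by over 1.5 times, the value at equal depth is given too. Members of sparse lists could pass the count filter through injured libraries alone, where they are high, so the share of tested members called higher is no support for such a list. More of them passed in the fit of all 22 libraries, flow-through and HA IP together. Its counts in flow-through are given beside them, but members could pass there through injured HA IP libraries, so these are no support either. The same holds for the call of any gene tested in that fit alone. That fit called 13.5% of 15142 genes higher and 13.7% lower in flow-through. As these are bulk samples, fewer cells of a type and less RNA per cell cannot be told apart.

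Genes of microglia and macrophages rose together. All 18 general myeloid genes and 11 of 14 genes that mark resident (homeostatic) microglia were called higher, with median log2 changes of 4.82 and 3.38. The summed level of the myeloid genes was 10786 to 19772 CPM in WT SCI and 423 to 832 CPM in uninjured libraries, that of the microglia genes 4898 to 7742 CPM in WT SCI and 327 to 528 CPM in uninjured libraries. C1qa, a chain of the complement starter C1q that brain phagocytes secrete, had 2266, 2885, 3844 and 2271 CPM in WT SCI libraries, against 11.1, 27.5, 32.2 and 18.6 CPM in uninjured libraries (log2 change 6.996, SE 0.39, adjusted p = 4.85e-13). Laptm5, a lysosomal membrane protein of blood-derived cells, had 2683, 2901, 2791 and 2842 CPM in WT SCI libraries, against 42.7, 52.6, 81.9 and 47.9 CPM in uninjured libraries (log2 change 5.64, SE 0.31, adjusted p = 4.85e-13). For both genes the 4 WT SCI values were far above all uninjured values. Ptprc, which encodes the pan-leukocyte antigen CD45, ranged over 43.1 to 199 CPM in WT SCI and 1.22 to 4.02 CPM in uninjured animals (log2 change 5.81, SE 0.52, adjusted p = 2.36e-09). Ptprc had a log2 change of 6.73 at equal depth (5.81 with all counts).

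Microglia genes did not move alike. Fcrls, an Fc receptor-like gene of resident microglia, had 749.8, 1104, 1112 and 850.4 CPM in WT SCI libraries, against 4.78, 10.4, 14.9 and 7.33 CPM in uninjured libraries and rose 105-fold (adjusted p = 4.85e-13). Slco2b1, an organic anion transporter, was 17.97-fold higher and Cx3cr1, the fractalkine receptor, 15.0-fold (adjusted p = 1.8e-09 and 3.09e-09). Tmem119, a membrane protein of resident microglia, rose by less, with 76.3, 234, 258 and 151 CPM in WT SCI libraries, against 16.8, 40.1, 41.9 and 27.7 CPM in uninjured libraries (log2 change 2.51, SE 0.44, adjusted p = 7.21e-05). P2ry12, the purinergic receptor by which resting microglia sense ATP and ADP, had 11.2, 8.06, 38.1 and 10.8 CPM in WT SCI libraries, against 33.4, 40.1, 36.7 and 34.6 CPM in uninjured libraries and did not pass the test (log2 change -1.09, adjusted p = 0.147). Its WT SCI values were below the uninjured ones in 3 animals and among them in animal 9874. Without animal 9874 its log2 change was -1.84 and was called (adjusted p = 0.0298). Siglech and Sall1, also microglia genes, had log2 changes of 1.56 (adjusted p = 0.0819) and 0.32 (adjusted p = 0.657). Slco2b1 had a log2 change of 3.35 at equal depth (4.17 with all counts).

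The lipid-handling phagocyte genes, which phagocytes use when they take up and process myelin lipid, were all called higher, 23 of 23 tested, with a median log2 change of 5.20. Their summed level was 13876 to 35320.4 CPM in WT SCI and 659 to 994 CPM in uninjured libraries. In the fit of all 22 libraries 21 of the 23 were called higher in flow-through, and Fabp5 and Nceh1 were not (adjusted p = 0.122 and 0.0949). Gpnmb, a glycoprotein of the lysosome and cell surface (chromosome 6, 49036546 to 49070929, + strand, mouse build GRCm38), had 2426, 6607, 3345 and 1023 CPM in WT SCI libraries, against 1.30, 2.75, 2.13 and 3.94 CPM in uninjured libraries (log2 change 10.36, SE 0.56, adjusted p = 4.85e-13). Apoe, the main lipid carrier of the nervous system (chromosome 7, 19696109 to 19699188, - strand), had 11231, 15446, 13358 and 5791 CPM in WT SCI libraries, against 74.1, 165, 187 and 154 CPM in uninjured libraries and rose 79.2-fold (adjusted p = 2.4e-12). Trem2, the lipid-sensing receptor of microglia, had 1152, 2329, 2326 and 1604 CPM in WT SCI libraries, against 2.00, 22.7, 20.1 and 10.4 CPM in uninjured libraries (log2 change 7.12, SE 0.52, adjusted p = 7.51e-11). In each of these 3 genes the lowest WT SCI library was at least an order of magnitude above the highest uninjured library. Gpnmb had a log2 change of 11.23 at equal depth (10.36 with all counts).

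Cst7, a cysteine protease inhibitor of activated microglia, had 417 counts over the WT SCI libraries and 1 count over the uninjured ones, a ratio after scaling of 10526 with a 95% counting interval of 1879 to 416736. Its WT SCI levels were 257, 282, 753 and 334 CPM, highest in animal 9874. Lgals3, the phagocyte lectin galectin-3, had 136, 326, 207 and 279.9 CPM in WT SCI libraries, against 0, 0, 0.237 and 0.438 CPM in uninjured libraries (adjusted p = 4.85e-13). Lpl, lipoprotein lipase, and Clec7a, the receptor dectin-1, ranged over 80.6 to 161 CPM in WT SCI and 0.328 to 1.53 CPM in uninjured animals, and over 125 to 249 CPM in WT SCI and 0.0869 to 1.89 CPM in uninjured animals, without overlap. Axl, a receptor by which phagocytes bind dying cells, rose 28.7-fold and Spp1, the secreted protein osteopontin, 12.2-fold (adjusted p = 3.16e-11 and 7.4e-09). Tmem106a, a membrane protein of macrophages, had 145, 363, 300.2 and 559.8 CPM in WT SCI libraries, against 1.13, 2.45, 1.18 and 0.766 CPM in uninjured libraries (log2 change 8.002, SE 0.48, adjusted p = 1.83e-12). Log2 changes were 13.01 for Cst7 (12.40 with all libraries) and 11.13 for Lgals3 (10.05 with all libraries) without uninjured animal 154. Log2 changes were 11.79 for Cst7, 9.38 for Lgals3 and 7.57 for Clec7a (8.17 with all libraries) without uninjured animal 42. Clec7a had a log2 change of 9.28 without uninjured animal 79. At equal depth log2 changes were 8.28 for Cst7 (12.40 with all counts), 7.43 for Lgals3 (10.05 with all counts), 6.27 for Lpl (7.51 with all counts), 7.06 for Clec7a (8.17 with all counts) and 6.56 for Tmem106a (8.002 with all counts).

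**Figure D2:**
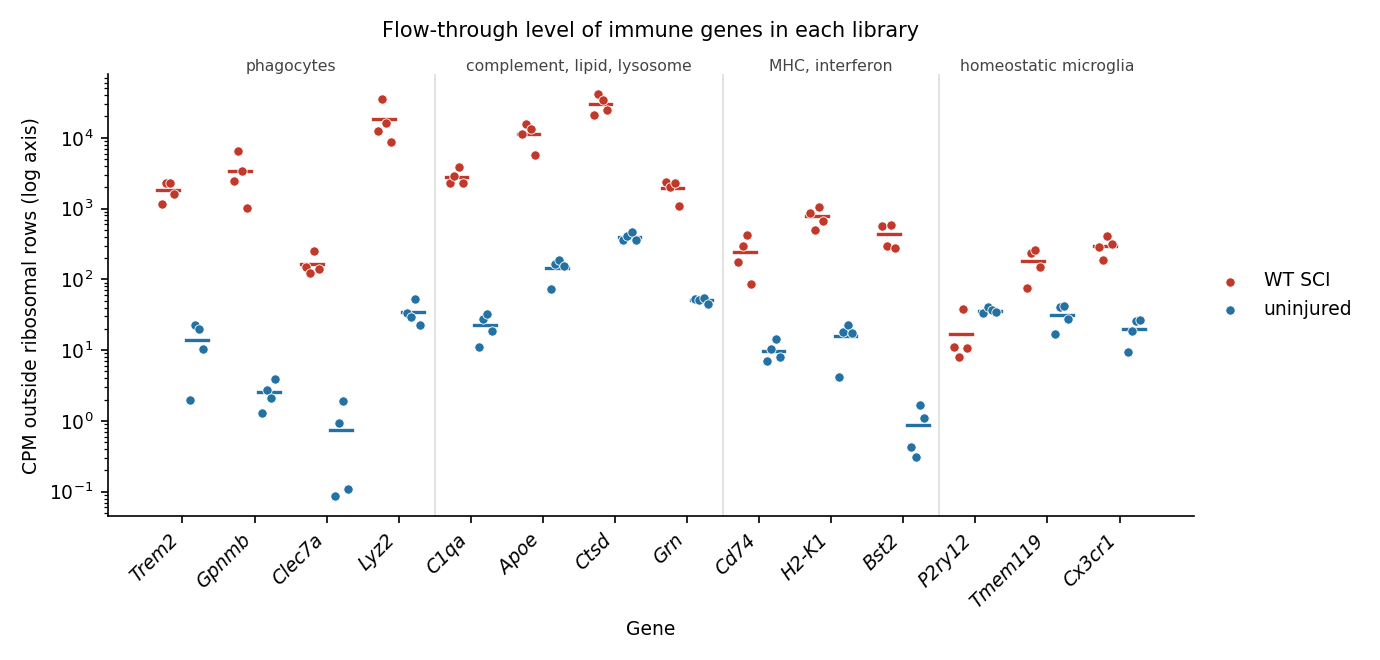
CPM outside the ribosomal rows (log axis) of phagocyte, antigen presentation and interferon genes in each flow-through library, WT SCI left of uninjured. Points are libraries and bars are group means. The WT SCI libraries lie above the uninjured ones for every plotted gene but P2ry12, and for Gpnmb at 1023 CPM or more against 3.94 CPM or less.

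The ETS factor PU.1, encoded by Spi1, binds purine-rich sites in many genes of the myeloid lineage. The core letters GAGGAAGT, searched on both strands of the 250 bases before the RefSeq start, occurred in 5 of 54 genes (9.26%) of the 4 phagocyte lists that have a promoter sequence, in 2.77% of all genes tested and in 2.79% of all RefSeq genes. Of the members called higher, 4 of 44 (9.09%) held it. By list, 2 of 13 infiltrating macrophage genes and 2 of 19 lipid-handling phagocyte genes held it. The general myeloid list had it in 1 of 13 genes and the homeostatic microglia list in 0 of 9. The lists were compiled from genes known in phagocytes, so these shares describe the lists and not the injury. The 4 promoters below belong to called members and are shown so that the match can be seen in its surroundings, in capitals, 5′ to 3′ on the strand of the gene, from RefSeq on GRCm38.p6. They lie at chr5:90772185-90772434 (+ strand), chr4:136892915-136893164 (- strand), chr5:104434861-104435110 (+ strand) and chr3:27182754-27183003 (+ strand). In Spp1 the match reads on the strand of the gene, and in the others on the opposite strand.
Pf4: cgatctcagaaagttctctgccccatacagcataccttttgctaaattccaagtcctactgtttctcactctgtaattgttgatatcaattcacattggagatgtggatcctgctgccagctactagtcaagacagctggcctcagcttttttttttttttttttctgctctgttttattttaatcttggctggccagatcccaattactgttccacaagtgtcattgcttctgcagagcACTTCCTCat
C1qc: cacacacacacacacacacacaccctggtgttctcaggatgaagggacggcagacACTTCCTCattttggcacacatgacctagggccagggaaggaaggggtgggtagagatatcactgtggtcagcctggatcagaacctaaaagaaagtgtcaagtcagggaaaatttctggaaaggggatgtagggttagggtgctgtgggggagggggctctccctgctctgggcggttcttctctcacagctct
Spp1: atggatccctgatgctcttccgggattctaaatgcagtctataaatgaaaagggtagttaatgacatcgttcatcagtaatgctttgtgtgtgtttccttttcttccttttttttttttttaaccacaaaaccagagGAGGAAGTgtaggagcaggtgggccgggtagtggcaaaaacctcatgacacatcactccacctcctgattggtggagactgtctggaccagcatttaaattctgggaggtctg
Nceh1: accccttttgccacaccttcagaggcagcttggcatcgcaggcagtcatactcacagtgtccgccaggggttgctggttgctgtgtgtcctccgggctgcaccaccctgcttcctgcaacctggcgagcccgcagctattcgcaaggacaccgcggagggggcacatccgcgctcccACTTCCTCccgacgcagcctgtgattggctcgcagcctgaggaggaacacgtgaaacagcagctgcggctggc
The log2 changes of these genes ranged widely, at 5.08 for Pf4, a platelet chemokine that some macrophages express, 4.86 for C1qc, 3.61 for Spp1 and 0.98 for Nceh1, which releases cholesterol from stored esters. A match is a string of letters and not a measured binding site.

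Genes listed for macrophages that enter from blood could be tested only in part. The list also holds genes that other macrophages express, such as Mrc1, so its calls do not show entry from blood. Of 15 on the list 7 passed the count filter and were called higher, and the other 8 had at most 10 counts over the WT SCI libraries. In the fit of all 22 libraries 9 of 12 tested were called higher, and Mrc1, Cd163 and F13a1 were not. Lyz2, the lysozyme of macrophages and neutrophils (chromosome 10, 117277331 to 117282321, - strand), had 12492, 35892, 15954 and 8741 CPM in WT SCI libraries, against 33.4, 29.7, 53.2 and 22.6 CPM in uninjured libraries (log2 change 9.04, SE 0.50, adjusted p = 4.85e-13), with no overlap. Ms4a7, a membrane protein of macrophages, had 80 counts in WT SCI and 1 count in uninjured libraries, a ratio of 2019 with a 95% counting interval of 352 to 80745. Arg1, arginase of alternatively activated macrophages, had 22 counts in WT SCI, 76.5 CPM of them in animal 9843 and 0 to 8.46 CPM in the others, and 1 count in uninjured libraries. Ccr2, the monocyte chemokine receptor, had 10 counts in WT SCI, against 4 in uninjured libraries, and Ly6c2, a surface antigen of inflammatory monocytes, 10 and 0. Both were tested only in the fit of all 22 libraries and were called higher there (adjusted p = 0.0009 and 0.00121). Mrc1, the mannose receptor of macrophages at vessels and meninges, had 3 and 33 counts (adjusted p = 0.495 in that fit). With WT libraries alone 2 members of the list were called, and 1 at equal depth, settings in which fewer genes passed the count filter. Log2 changes were 9.39 for Ms4a7 (10.01 with all libraries) and 7.66 for Arg1 (8.24 with all libraries) without uninjured animal 42. Ms4a7 had a log2 change of 10.91 without uninjured animal 79. Arg1 had a log2 change of 8.85 without uninjured animal 154.

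Genes of neutrophils, lymphocytes and red cells had few counts, in WT SCI libraries where 3 counts equal 5.58 to 32.3 CPM. Neutrophil genes S100a8, Mmp8, Ngp, Retnlg, Cxcr2 and Camp had 0 or 1 count over the WT SCI libraries, and of 10 listed genes only Csf3r and Mmp9 were tested. Csf3r, the receptor for granulocyte colony-stimulating factor, which microglia also express, rose 13.4-fold (adjusted p = 1.01e-07). The summed level of the neutrophil list, Csf3r included, was 65.1 to 237 CPM in WT SCI and 16.4 to 25.3 CPM in uninjured libraries. S100a9, tested only in the fit of all 22 libraries, was not called there (log2 change 1.23, adjusted p = 0.664). Mmp9, a secreted protease, had 0 counts in WT SCI, against 163 in uninjured libraries and was at least 2.15-fold lower, with 3 counts over the WT SCI group as floor. Mmp9 was not called on leaving out uninjured animal 79 or WT SCI animal 9596 alone (log2 changes -7.47 to -6.95, adjusted p = 0.0507 to 0.0866). Of 16 T and NK cell genes 3 passed the count filter and were called higher. In the fit of all 22 libraries 5 of 9 tested were, and Lck, Cd2, Cd8a and Il7r were not. Cd3e, a chain of the T cell receptor complex, had 3.72, 0, 42.3 and 0 CPM in WT SCI libraries, against 0, 1.53, 0 and 0.219 CPM in uninjured libraries (log2 change 5.10, adjusted p = 0.00272). Nkg7, a granule protein of cytotoxic cells, had 7 counts in WT SCI, all in animal 9874. Ccl5, a chemokine of T cells and other cells, had 35.4, 24.2, 55.0 and 0 CPM in WT SCI libraries, against 4.78, 0.612, 0 and 0.109 CPM in uninjured libraries (log2 change 4.30, adjusted p = 0.000804). The summed level of the T and NK list was 186 CPM in animal 9874 against 56.4 to 67.0 CPM in the other WT SCI animals and 3.28 to 9.64 CPM in uninjured animals. Without animal 9874, 1 gene of the list was called, and Nkg7 had a log2 change of -2.19. With WT libraries alone 0 were called, as none of the 3 passed the count filter there. B cell genes Cd79a and Ms4a1 had 0 counts in WT SCI, and neither tested member of that list passed (Derl3, log2 change 1.14 (adjusted p = 0.387)). Globin genes of red cells had 1 count in all 8 libraries together. Log2 changes were 4.45 for Cd3e (5.10 with all libraries) and 7.005 for Ccl5 (4.30 with all libraries) without uninjured animal 42. Cd3e had a log2 change of 6.63 without uninjured animal 65. Nkg7 had a log2 change of 6.11 (5.43 with all libraries) without WT SCI animal 9596.

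Lysosomal enzymes and the phagocyte oxidase rose together, with 25 of 26 tested genes called higher and a median log2 change of 4.30. Their summed level was 44233 to 76245 CPM in WT SCI and 2634 to 3658 CPM in uninjured libraries. Cybb and Cyba form the membrane core of the NADPH oxidase that makes superoxide in phagocytes. Cybb had 199, 266, 97.3 and 53.8 CPM in WT SCI libraries, against 0.434, 0, 0.237 and 0.109 CPM in uninjured libraries (log2 change 9.17, SE 0.57, adjusted p = 3.78e-12), and Cyba had 201, 342, 271 and 139.9 CPM in WT SCI libraries, against 0.0869, 2.75, 2.60 and 0.875 CPM in uninjured libraries (log2 change 7.54, SE 0.57, adjusted p = 1.38e-10). Atp6v0d2, a proton pump subunit of osteoclasts and macrophages, had 78.1, 226, 59.2 and 10.8 CPM in WT SCI libraries, against 0.0869, 0, 1.42 and 0 CPM in uninjured libraries (log2 change 8.27, adjusted p = 1.96e-08). WT SCI values were above all uninjured values in each of the 3 genes. Log2 changes were 9.84 for Cybb (9.17 with all libraries) and 6.95 for Cyba (7.54 with all libraries) without uninjured animal 42. Atp6v0d2 had a log2 change of 10.23 (8.27 with all libraries) without uninjured animal 79. Atp6v0d2 had a log2 change of 7.47 without WT SCI animal 9843. Cybb had a log2 change of 6.76 at equal depth (9.17 with all counts).

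Iron and heme genes were split. Slc11a1, the iron transporter of the phagosome, Hmox1, which breaks down heme, and Ftl1, the ferritin light chain, rose 53.2-fold, 24.1-fold and 15.8-fold (adjusted p = 2.1e-10, 9.04e-08 and 3.6e-09). Ftl1 had 6014, 14298, 13079 and 6448 CPM in WT SCI libraries, against 392.2, 764, 886 and 484 CPM in uninjured libraries. Its partner Fth1, the heavy chain, had a log2 change of -0.13 (adjusted p = 0.76). Tfrc, the transferrin receptor through which cells import iron, was lower, with 40.9, 60.4, 12.7 and 0 CPM in WT SCI libraries, against 115, 85.7, 96.6 and 109.8 CPM in uninjured libraries (log2 change -1.62, adjusted p = 0.00753), and all WT SCI values lay below the uninjured ones. Of the 10 genes 4 were called higher and 1 lower. The fourth higher call, Trf, which encodes transferrin, had 1297, 5399, 1315 and 829 CPM in WT SCI and 1436, 1040.1, 1043 and 912 CPM in uninjured libraries and rested on animal 9843, without which the log2 change was 0.06 (adjusted p = 0.884). It was also lost without uninjured animal 154, 65 or 79 and under 5 of the other settings. Slc11a1 had a log2 change of 6.44 (5.73 with all libraries) without uninjured animal 42. At equal depth log2 changes were 5.02 for Slc11a1 (5.73 with all counts), 3.95 for Hmox1 (4.59 with all counts) and -2.79 for Tfrc (-1.62 with all counts).

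Antigen presentation genes were higher in both classes. For major histocompatibility complex (MHC) class II, which displays peptides to helper T cells, 6 of 8 members passed the count filter and were called higher, and 6 of 8 were in the fit of all 22 libraries. Cd74, the invariant chain that escorts class II molecules, had 177, 298, 427 and 86.1 CPM in WT SCI libraries, against 6.95, 10.4, 14.2 and 7.88 CPM in uninjured libraries (log2 change 4.71, SE 0.45, adjusted p = 7.16e-09). H2-Ab1, a beta chain, and H2-Eb1, another, ranged over 55.0 to 108 CPM in WT SCI and 0.174 to 2.19 CPM in uninjured animals, and over 36.3 to 57.7 CPM in WT SCI and 0.869 to 4.59 CPM in uninjured animals, without overlap. Ciita, the master regulator of class II genes, had 0 counts in WT SCI, against 23 in uninjured libraries and was not called in the fit that tested it (adjusted p = 0.378). For class I and its peptide supply, 9 of 11 were called higher (median log2 change 3.82). H2-K1, a class I heavy chain, had 875, 504, 1061 and 678 CPM in WT SCI libraries, against 4.17, 18.1, 22.5 and 17.6 CPM in uninjured libraries (log2 change 5.67, SE 0.43, adjusted p = 1.34e-10). Tap1, a subunit of the peptide transporter, had 151, 24.2, 63.4 and 21.5 CPM in WT SCI libraries, against 0.0869, 0.306, 2.13 and 0.656 CPM in uninjured libraries (adjusted p = 1.68e-07), and Nlrc5, an activator of class I genes, 33 counts in WT SCI, against 4 in uninjured libraries (log2 change 7.19, adjusted p = 6.15e-06). H2 genes are close copies of each other, so their separate counts are uncertain. Log2 changes were 6.68 for H2-Ab1 (5.96 with all libraries) and 9.04 for Nlrc5 (7.19 with all libraries) without uninjured animal 154. Tap1 had a log2 change of 7.53 (6.61 with all libraries) without uninjured animal 79. Tap1 had a log2 change of 5.74 without WT SCI animal 9596. Nlrc5 had a log2 change of 6.59 without uninjured animal 42. At equal depth log2 changes were 3.45 for H2-Ab1 (5.96 with all counts) and 3.19 for H2-Eb1 (4.45 with all counts).

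Interferon-responsive genes were called higher for the 18 of 24 that passed the count filter. The other 6 had 5 to 25 counts over the WT SCI libraries and did not pass the count filter, among them Gbp3 with 16 counts in WT SCI, against 91 in uninjured libraries. In the fit of all 22 libraries all 24 were tested and called higher. Bst2, the membrane protein tetherin that holds back budding viruses, had 573, 298, 592 and 279.9 CPM in WT SCI libraries, against 0.434, 0.306, 1.66 and 1.09 CPM in uninjured libraries (log2 change 8.97, SE 0.48, adjusted p = 4.85e-13). Zbp1, a sensor of Z-form nucleic acid, had 48.4, 52.4, 109.9 and 32.3 CPM in WT SCI libraries and 0 counts in all uninjured libraries, and was at least 572-fold higher with 3 counts over the uninjured group as floor. Cxcl10, an interferon-induced chemokine that draws T cells, had 94.9, 60.4, 161 and 10.8 CPM in WT SCI libraries, against 0, 0, 0.947 and 0 CPM in uninjured libraries (log2 change 8.79, adjusted p = 5.99e-09). Among the less changed members, Stat2, which carries the interferon signal, had a log2 change of 1.86 (adjusted p = 0.0253). Cxcl10 had a log2 change of 8.10 (8.79 with all libraries) without uninjured animal 42. Cxcl10 had a log2 change of 11.04 without uninjured animal 79. At equal depth log2 changes were 6.83 for Bst2 (8.97 with all counts) and 5.94 for Cxcl10 (8.79 with all counts).

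The letters GAAANNGAA form the core of the interferon-stimulated response element. They occurred, on either strand of the 250 bases before the start, in 12 of 19 list genes with a RefSeq promoter (63.2%), in 9 of 15 members called higher (60.0%), in 7.24% of all genes tested and in 8.18% of all RefSeq genes. The list was compiled from genes known to answer to interferon, so this share describes the list and not the injury. The 4 promoters with a match whose genes changed most are shown with the match in capitals, 5′ to 3′ on the strand of the gene, from RefSeq on GRCm38.p6. They lie at chr8:71537473-71537722 (- strand), chr5:92348890-92349139 (- strand), chr12:26456453-26456702 (- strand) and chr3:142620413-142620662 (+ strand). Bst2 holds 2 overlapping matches. In Rsad2 and Gbp2 the core reads on the opposite strand.
Bst2: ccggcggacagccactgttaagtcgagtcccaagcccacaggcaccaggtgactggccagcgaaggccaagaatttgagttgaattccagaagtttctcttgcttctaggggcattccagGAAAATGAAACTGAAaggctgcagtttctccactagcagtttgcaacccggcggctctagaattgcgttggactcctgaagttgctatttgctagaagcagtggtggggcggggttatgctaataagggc
Cxcl10: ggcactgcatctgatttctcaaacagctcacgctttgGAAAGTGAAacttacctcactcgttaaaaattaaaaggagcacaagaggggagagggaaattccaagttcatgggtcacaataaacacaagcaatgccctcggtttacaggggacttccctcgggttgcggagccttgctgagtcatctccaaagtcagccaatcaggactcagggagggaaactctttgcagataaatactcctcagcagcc
Rsad2: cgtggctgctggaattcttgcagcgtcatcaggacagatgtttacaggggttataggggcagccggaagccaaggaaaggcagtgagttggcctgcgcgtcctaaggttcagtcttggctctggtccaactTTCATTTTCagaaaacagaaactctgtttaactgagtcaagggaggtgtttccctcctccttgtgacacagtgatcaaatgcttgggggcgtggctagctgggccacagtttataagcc
Gbp2: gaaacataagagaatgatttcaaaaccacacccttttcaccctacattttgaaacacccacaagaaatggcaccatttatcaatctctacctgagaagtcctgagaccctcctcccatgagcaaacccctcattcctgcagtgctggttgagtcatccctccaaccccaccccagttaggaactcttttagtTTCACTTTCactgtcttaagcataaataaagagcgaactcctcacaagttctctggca
The log2 changes of these genes were 8.97 for Bst2, 8.79 for Cxcl10, 7.55 for Rsad2, the antiviral enzyme viperin, and 5.98 for Gbp2, a guanylate-binding GTPase. The matches lie at different distances from the start, the nearest with its first base 58 bases before it in Gbp2 and the farthest 213 bases before it in Cxcl10.

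Complement genes were higher for 11 of 12 tested, the exception being Cfb, complement factor B (log2 change -0.34, adjusted p = 0.83). C5ar1, the receptor for the fragment C5a, had 40.9, 92.7, 131 and 96.9 CPM in WT SCI libraries, against 1.04, 0.918, 0.947 and 1.09 CPM in uninjured libraries (log2 change 6.38, adjusted p = 7.94e-10). C3ar1, the receptor for C3a, had 207, 121, 207 and 43.1 CPM in WT SCI libraries, against 6.51, 1.84, 0.473 and 4.27 CPM in uninjured libraries (log2 change 5.39, adjusted p = 9.78e-09). Neither gene overlapped between the groups. C1ra and C1s1, which encode the proteases of the C1 complex, had 2 and 4 counts in WT SCI, against 1 and 4 in uninjured libraries. Both were tested only in the fit of all 22 libraries, which called them higher (adjusted p = 0.0422 and 0.0336) and 14 of 16 complement genes in all. Of 19 chemokine and cytokine genes tested, 14 were called higher and 1 lower. With WT libraries alone, where fewer genes passed the count filter, 5 were higher. In the fit of all 22 libraries 20 of 28 were higher. Il1rn, the antagonist of the interleukin-1 receptor, had 37.2, 92.7, 80.3 and 118 CPM in WT SCI libraries and 0 counts in uninjured libraries, at least 614-fold higher. Its agonist Il1b had 4 counts in WT SCI, against 0 in uninjured libraries and was called higher in the fit of all 22 libraries (adjusted p = 0.00533). Tnf had 2 and 1 counts (adjusted p = 0.044 in that fit), and Il6 0 and 1. As genes could pass that filter through HA IP, the calls of C1ra, C1s1, Il1b and Tnf are no support for a rise in flow-through. Ccl4, a chemokine of activated microglia, had 37 counts in WT SCI, against 1 in uninjured libraries, a ratio of 934 with a 95% counting interval of 158 to 37874. Cx3cl1, the neuronal fractalkine, was the lower one, with 81.9, 76.5, 12.7 and 0 CPM in WT SCI libraries, against 189, 139.6, 160.0 and 146 CPM in uninjured libraries (log2 change -1.65, SE 0.44, adjusted p = 0.00554). Its values did not overlap, and it is the ligand of the microglial receptor Cx3cr1, which rose. Ccl4 had a log2 change of 8.44 (9.06 with all libraries) without uninjured animal 42. Ccl4 had a log2 change of 9.99 without uninjured animal 79. Cx3cl1 had a log2 change of -2.25 at equal depth (-1.65 with all counts).

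Neuronal RNA moved the other way. Over 7 lists of neuronal genes, 68 of 113 tested genes were called lower and 1 higher, with a median log2 change of -1.52. Of general neuronal genes 13 of 20 were called lower. Their summed level was 5399 to 10215 CPM in WT SCI and 21526 to 26044 CPM in uninjured libraries. Snap25, a membrane protein of vesicle fusion (chromosome 2, 136713453 to 136782428, + strand), had 1118, 508, 757 and 667 CPM in WT SCI libraries, against 10312, 8707, 9551 and 11787 CPM in uninjured libraries (log2 change -3.72, SE 0.30, adjusted p = 3.88e-10), a 13.1-fold difference with no overlap. Rbfox3, the nuclear neuron marker NeuN, had 44.7, 16.1, 50.7 and 43.1 CPM in WT SCI libraries, against 199.8, 186, 184 and 205 CPM in uninjured libraries (log2 change -2.33, SE 0.36, adjusted p = 1.58e-05). Syn1, the vesicle protein synapsin, was 4.21-fold lower and Nefl, the light neurofilament chain, 3.47-fold lower (adjusted p = 1.12e-06 and 0.000101). Syt1, the calcium sensor of release, had 50.2, 28.2, 16.9 and 258 CPM in WT SCI libraries, against 237, 149, 153 and 199.7 CPM in uninjured libraries, and only WT SCI animal 9935 was high. Its call (log2 change -1.41, adjusted p = 0.0317) was lost with DESeq2, at equal depth and on leaving out WT SCI animal 9596, 9843 or 9874 or uninjured animal 42 or 154 alone (adjusted p = 0.0627 to 0.239). Without animal 9935 its log2 change was -2.43.

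Not all neuronal genes fell. Map2 and Nefh, which encode a dendritic microtubule protein and the heavy neurofilament chain, had log2 changes of -0.06 (adjusted p = 0.878) and -0.06 (adjusted p = 0.901). The long noncoding RNA Snhg11, an abundant nuclear transcript of neurons, was higher, with 1963, 870.2, 765 and 1572 CPM in WT SCI libraries, against 505, 242, 243 and 377 CPM in uninjured libraries (log2 change 1.92, SE 0.31, adjusted p = 3.09e-05). The 10 lower genes with the largest changes among those at an average log2 CPM of 4 or more included Snap25 and Vsnl1, a neuronal calcium sensor, which had 379.6, 157, 123 and 237 CPM in WT SCI libraries, against 2499.8, 3341, 3209.7 and 3354 CPM in uninjured libraries (log2 change -3.77, SE 0.34, adjusted p = 2.88e-09). The others were Tmem255a, Pcp4l1, Cxx1c, Cox7b, a subunit of cytochrome c oxidase, Nrsn2, Hspa4l, a chaperone, Micu3, a regulator of the mitochondrial calcium uniporter, and Slc25a4, the mitochondrial ADP/ATP carrier, with log2 changes of -3.77 to -3.10 and adjusted p of 8.85e-09 to 8.74e-06. Log2 changes were -4.68 for Tmem255a (-3.77 with all libraries) and -3.82 for Micu3 (-3.12 with all libraries) without WT SCI animal 9596.

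**Figure D3:**
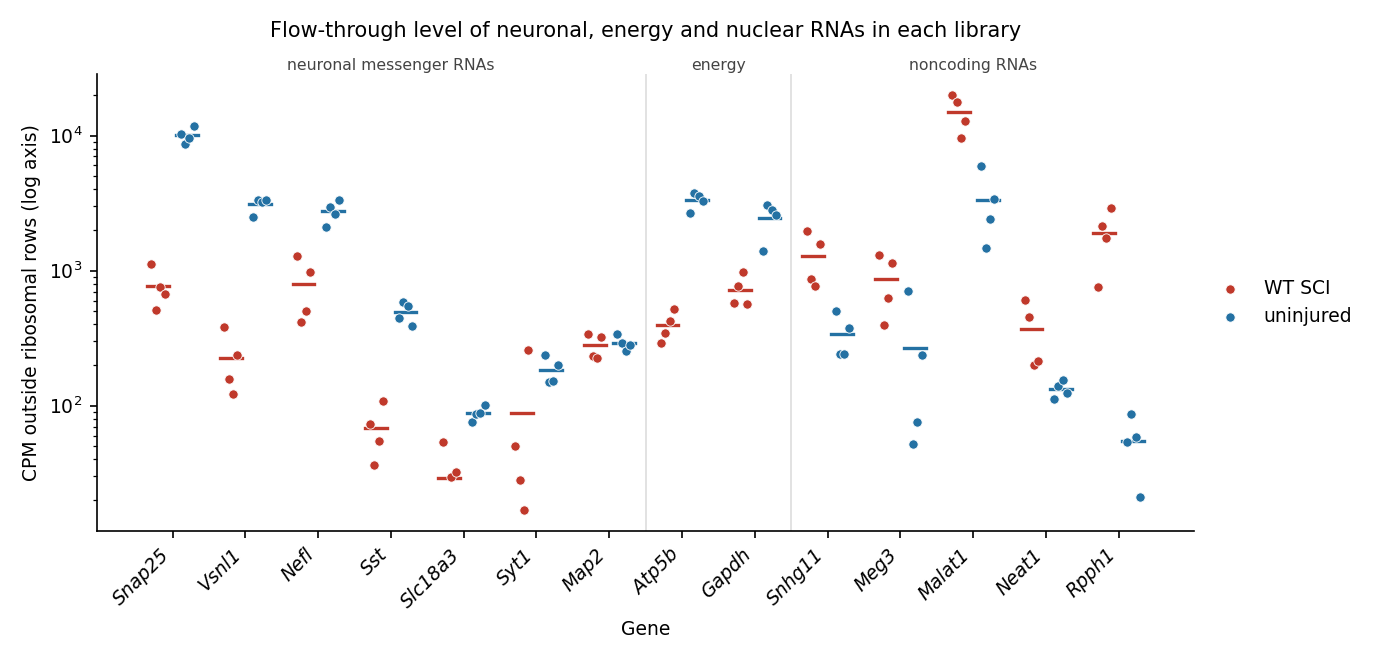
CPM outside the ribosomal rows (log axis) of neuronal messenger RNAs, energy metabolism genes and noncoding RNAs in each flow-through library, WT SCI left of uninjured. Points are libraries and bars are group means. Snap25 lies at 1118 CPM or less in WT SCI against 8707 CPM or more in uninjured libraries, and Snhg11 lies higher in WT SCI.

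Genes of the synaptic vesicle cycle were called lower for 11 of 20 and higher for 0. Pclo, a scaffold of the release site, had 96.8, 145, 46.5 and 32.3 CPM in WT SCI libraries, against 395, 457, 489 and 502 CPM in uninjured libraries (log2 change -2.42, SE 0.37, adjusted p = 1.07e-05), and Sv2b, a vesicle glycoprotein, 57.7, 28.2, 8.46 and 10.8 CPM in WT SCI libraries, against 236, 192, 163 and 229 CPM in uninjured libraries (log2 change -2.69, adjusted p = 1.1e-05). Neither overlapped. Stx1a, a syntaxin of vesicle fusion, had 2 counts in WT SCI, against 468 in uninjured libraries, a ratio of 9.27 with a 95% counting interval of 2.55 to 76.8, lower in WT SCI. Stx1a was not called on leaving out uninjured animal 42, uninjured animal 65, WT SCI animal 9596 or WT SCI animal 9874 alone (log2 changes -2.95 to -2.21, adjusted p = 0.0545 to 0.12). Vamp2, the vesicle SNARE, Syt11 and Sv2a had log2 changes of -0.04 (adjusted p = 0.926), -0.16 (adjusted p = 0.65) and -0.08 (adjusted p = 0.858). Sv2b had a log2 change of -3.58 (-2.69 with all libraries) without WT SCI animal 9596. Stx1a had a log2 change of -8.77 (-3.04 with all libraries) without WT SCI animal 9843. Sv2b had a log2 change of -3.82 at equal depth (-2.69 with all counts).

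Inhibitory transmission, which in the cord uses both GABA and glycine, had 13 of 18 genes called lower and 0 higher, with a median log2 change of -1.84. Gabra3, a subunit of the GABA-A receptor, had 16.7, 0, 4.23 and 10.8 CPM in WT SCI libraries, against 107, 55.7, 57.0 and 67.1 CPM in uninjured libraries (log2 change -2.99, adjusted p = 0.000375). Gabra5, another subunit, had 20.5, 52.4, 0 and 0 CPM in WT SCI libraries, against 131, 147, 149 and 179.6 CPM in uninjured libraries (log2 change -2.85, adjusted p = 0.000422). All WT SCI values of both lay below the uninjured ones. Glra3, a glycine receptor subunit, had 0 counts in WT SCI, against 327 in uninjured libraries and was at least 4.32-fold lower (adjusted p = 0.0133, and 0.0223 without uninjured animal 42). For excitatory transmission 7 of 13 were called lower. Slc17a6, the vesicular glutamate transporter of most spinal excitatory neurons, had 125, 60.4, 42.3 and 53.8 CPM in WT SCI libraries, against 293, 276, 271 and 314 CPM in uninjured libraries (log2 change -1.93, SE 0.34, adjusted p = 7.39e-05). Slc17a7, a second such transporter, had 1 count in WT SCI, against 414 in uninjured libraries, and Grin2a, an NMDA receptor subunit, 2 and 440, ratios of 16.4 with a 95% counting interval of 2.93 to 649 and of 8.72 with a 95% counting interval of 2.40 to 72.2, lower in WT SCI. Slc17a7 was not called without WT SCI animal 9596 (log2 change -3.10, adjusted p = 0.0692). The AMPA receptor gene Gria1 had a log2 change of 0.03 (adjusted p = 0.967). Gabra3 had a log2 change of -4.33 (-2.99 with all libraries) without WT SCI animal 9596. Log2 changes were -3.74 for Gabra5 (-2.85 with all libraries) and -4.07 for Grin2a (-3.42 with all libraries) without WT SCI animal 9843. Slc17a7 had a log2 change of -8.78 (-3.98 with all libraries) without WT SCI animal 9935. The count of lower excitatory genes was 4 without uninjured animal 154.

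Voltage-gated channels were lower for 10 of 18. Kcnq3, an M-current channel subunit, had 1 count in WT SCI, against 598 in uninjured libraries, a ratio of 23.7 with a 95% counting interval of 4.24 to 937, lower in WT SCI. Scn2b, an auxiliary sodium channel subunit, had a log2 change of 0.03 (adjusted p = 0.974). Kcnq3 had a log2 change of -3.45 (-4.32 with all libraries) without WT SCI animal 9596. Kcnq3 had a log2 change of -9.05 without WT SCI animal 9874.

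Of the dorsal horn and interneuron peptides, 9 of 17 tested were called lower and 0 higher, with a median log2 change of -2.31 (-1.94 with Calcb and Vip, at 0 counts in WT SCI, set to their bound). Sst, somatostatin of excitatory dorsal horn interneurons (chromosome 16, 23889573 to 23890958, - strand), had 72.6, 36.3, 55.0 and 108 CPM in WT SCI libraries, against 444, 589, 545 and 389 CPM in uninjured libraries (log2 change -2.94, SE 0.34, adjusted p = 2.04e-07), and Tac2, which encodes neurokinin B in mouse, 13.02, 12.1, 8.46 and 0 CPM in WT SCI libraries, against 123, 92.7, 146 and 99.1 CPM in uninjured libraries (log2 change -3.48, SE 0.52, adjusted p = 9.76e-06). All WT SCI values of both genes lay below the uninjured ones. Calcb, the beta form of the peptide CGRP, had 0 counts in WT SCI, against 351 in uninjured libraries and was at least 4.64-fold lower. Calca, the alpha form, which motor neurons make, had 35.4, 24.2, 21.1 and 10.8 CPM in WT SCI libraries, against 42.6, 93.7, 84.5 and 51.2 CPM in uninjured libraries (log2 change -1.41, adjusted p = 0.0288). Calca was not called on leaving out uninjured animal 65, uninjured animal 79, WT SCI animal 9843 or WT SCI animal 9874 alone (log2 changes -1.37 to -1.23, adjusted p = 0.0559 to 0.099). Npy and Nmb had positive log2 changes of 0.78 (adjusted p = 0.217) and 0.86 (adjusted p = 0.479).

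Cholinergic genes of motor neurons were called lower for 5 of 7 tested. Ache, acetylcholinesterase, had 5.58, 20.1, 4.23 and 64.6 CPM in WT SCI libraries, against 105, 129, 120.5 and 125 CPM in uninjured libraries (log2 change -2.92, SE 0.55, adjusted p = 0.000205). Chodl, a marker of fast motor neurons, and Slc5a7, the choline transporter, were 6.24-fold and 3.15-fold lower (adjusted p = 0.00232 and 0.00941). Chat, which makes acetylcholine, had 18.6, 0, 29.6 and 10.8 CPM in WT SCI libraries, against 45.7, 22.7, 24.8 and 24.0 CPM in uninjured libraries (log2 change -0.92, adjusted p = 0.316), and its groups overlapped. Slc18a3, the vesicular acetylcholine transporter that lies within the Chat gene, had a log2 change of -1.51 (adjusted p = 0.0492) and was not called on leaving out any 1 of the 8 WT animals but 9596 (adjusted p = 0.0553 to 0.127). Prph, peripherin of motor axons, had a log2 change of 0.52 (adjusted p = 0.382). Ache had a log2 change of -3.71 (-2.92 with all libraries) without WT SCI animal 9935. Slc18a3 had a log2 change of -2.29 (-1.51 with all libraries) without WT SCI animal 9596.

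Astrocyte genes were detected in flow-through and many were higher after injury, although tagged astrocyte ribosomes had been removed. Of 22 homeostatic astrocyte genes 11 were called higher and 1 lower (2 lower without animal 9596), and of 12 tested genes of reactive astrocytes 9 were called higher. Gfap, the intermediate filament that defines astrocytes and whose promoter drove Cre (chromosome 11, 102887336 to 102900912, - strand), had 1950.0, 1724, 1624 and 2131 CPM in WT SCI libraries, against 120.4, 164, 163 and 113 CPM in uninjured libraries (log2 change 3.73, SE 0.29, adjusted p = 2.11e-10). Aqp4, the water channel of astrocyte endfeet, had 1179.7, 681, 968 and 829 CPM in WT SCI libraries, against 179.8, 117, 139 and 116 CPM in uninjured libraries (log2 change 2.73, SE 0.28, adjusted p = 2.8e-08). Mlc1, an endfoot membrane protein, and Aldh1l1, a folate enzyme, rose 4.37-fold and 4.86-fold (adjusted p = 8.18e-05 and 0.00478), and Aldh1l1 values overlapped, since animal 9874 had 8.46 CPM. Gstm1, a glutathione transferase, was lower, with 89.3, 72.5, 123 and 75.4 CPM in WT SCI libraries, against 182, 302, 331 and 358 CPM in uninjured libraries (adjusted p = 0.000156). Aldoc and Gja1 had log2 changes of 0.06 (adjusted p = 0.902) and 0.06 (adjusted p = 0.941). Summed levels of the homeostatic genes were 11792 to 16083 CPM in WT SCI and 5517 to 6903 CPM in uninjured libraries.

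Among reactive genes, Vim, the filament vimentin, which macrophages and endothelium also express, had 545, 1378, 989 and 678 CPM in WT SCI libraries, against 2.95, 22.04, 15.1 and 11.9 CPM in uninjured libraries (log2 change 6.16, SE 0.46, adjusted p = 1.3e-10). Timp1, a metalloprotease inhibitor, had 98.6, 36.3, 84.6 and 366 CPM in WT SCI libraries, against 6.08, 0, 0 and 0 CPM in uninjured libraries (log2 change 6.17, adjusted p = 1.91e-05); among uninjured animals all its counts were in animal 42. Emp1, an epithelial membrane protein, had 1.86, 44.3, 0 and 43.1 CPM in WT SCI and 0.782, 0, 0.71 and 0.328 CPM in uninjured libraries (log2 change 5.11, adjusted p = 0.000978) and overlapped. Stat3, the transcription factor of cytokine signalling, rose 2.80-fold (adjusted p = 0.00137), with no overlap. Slc1a3, the glutamate transporter GLAST, had 85.6, 40.3, 55.0 and 32.3 CPM in WT SCI libraries, against 26.3, 23.3, 22.96 and 19.6 CPM in uninjured libraries without overlap (log2 change 1.30, adjusted p = 0.0337). Its call was lost under 2 other scalings, without a filter and without uninjured animal 154, 65 or 79 or WT SCI animal 9596 (adjusted p = 0.0515 to 0.17). Timp1 had a log2 change of 11.26 (6.17 with all libraries) without uninjured animal 42. Timp1 had a log2 change of 5.34 without WT SCI animal 9935. Vim had a log2 change of 5.39 at equal depth (6.16 with all counts).

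Myelin genes did not move together. Of 22 genes 5 were called higher and 6 lower, the rest not passing, with a median log2 change of -0.19 beside -0.09 over all genes. Mbp, myelin basic protein, had 19228, 20885, 17307 and 20238 CPM in WT SCI libraries, against 9649, 11816, 12652 and 9939.9 CPM in uninjured libraries (log2 change 0.82, SE 0.26, adjusted p = 0.0183), and all WT SCI values were above the uninjured ones. Cldn11, the tight junction protein of myelin, was 2.08-fold higher (adjusted p = 0.00294), a call not made at equal depth. Mal, a proteolipid of myelin sorting, had 272, 229.6, 207 and 172 CPM in WT SCI libraries, against 784, 843, 888 and 988 CPM in uninjured libraries (log2 change -1.96, SE 0.26, adjusted p = 1.7e-06), below every uninjured value. Car2, carbonic anhydrase, and Fa2h, which hydroxylates myelin fatty acids, were 2.76-fold and 2.56-fold lower (adjusted p = 0.000243 and 0.00453). Mog, a myelin surface antigen, had a log2 change of -0.43 (adjusted p = 0.28). The count of genes called higher was 2 to 5 over the other settings, 2 under RLE and TMMwsp scaling and without uninjured animal 154, 65 or 79, while that of genes called lower was 5 to 7. Mbp was not called without uninjured animal 154 (log2 change 0.78, adjusted p = 0.0741).

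Oligodendrocyte precursor genes were mostly not called, 3 of 14 being higher. Cspg4, the proteoglycan NG2, which pericytes and some macrophages also carry, had 67.0, 145, 67.7 and 0 CPM in WT SCI libraries, against 8.86, 9.80, 7.57 and 6.24 CPM in uninjured libraries (log2 change 3.21, SE 0.56, adjusted p = 7.5e-05). Gpr17, a receptor of maturing precursors, was 2.74-fold higher (adjusted p = 0.00475), and Vcan, the proteoglycan versican, 3.02-fold (adjusted p = 0.0034). Vcan was not called without WT SCI animal 9596 (log2 change 0.95, adjusted p = 0.079). Pdgfra, their defining growth factor receptor, had 33.5, 24.2, 76.1 and 10.8 CPM in WT SCI libraries, against 35.3, 23.3, 20.4 and 29.4 CPM in uninjured libraries and overlapped (log2 change 0.50, adjusted p = 0.474). At equal depth 0 genes of the list were called, as Cspg4, Gpr17 and Vcan did not pass the count filter there. Schwann cell genes gave 1 call of 7, Gldn (log2 change 3.11, adjusted p = 0.0116), which encodes gliomedin of the nodes of Ranvier. Gldn was not called without WT SCI animal 9596 (log2 change 1.31, adjusted p = 0.527).

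Scar matrix genes were higher for 12 of 16 tested, and for 14 of 24 in the fit of all 22 libraries. Fn1, fibronectin, had 112, 218, 211 and 279.9 CPM in WT SCI libraries, against 2.52, 2.14, 3.55 and 1.31 CPM in uninjured libraries (log2 change 6.40, SE 0.44, adjusted p = 2.52e-11). Col1a1, a chain of fibrillar collagen I, had 76.3, 173, 76.1 and 43.1 CPM in WT SCI libraries, against 5.39, 3.98, 4.73 and 2.84 CPM in uninjured libraries (log2 change 4.48, adjusted p = 8.49e-08). Col1a2, its other chain, had 85.6, 129, 59.2 and 64.6 CPM in WT SCI libraries, against 10.9, 7.04, 10.4 and 8.64 CPM in uninjured libraries (log2 change 3.21, adjusted p = 5.72e-07). None of these 3 genes overlapped between the groups. Col3a1 and Col4a1 rose with log2 changes of 4.98 (adjusted p = 4.76e-05) and 4.87 (adjusted p = 1.1e-05), Col4a1 with 0 counts in animal 9935. Pericyte and smooth muscle genes gave 3 calls of 6, and 4 of 10 in the fit of all 22 libraries. With WT libraries alone 1 was called, and the calls lost there were of genes that did not pass the count filter. Anpep, aminopeptidase N, which myeloid cells also carry, had 114, 254, 50.7 and 43.1 CPM in WT SCI libraries, against 0.608, 0.306, 0 and 0.766 CPM in uninjured libraries (log2 change 7.79, adjusted p = 3.51e-10), whereas Pdgfrb, the defining receptor of pericytes, had 15 counts in WT SCI (log2 change 2.93, adjusted p = 0.00638). Notch3, the Notch receptor of mural cells, was the third (log2 change 2.90, adjusted p = 0.00846). Pdgfrb was not called without WT SCI animal 9843 (log2 change 2.38, adjusted p = 0.0511). Notch3 was not called without WT SCI animal 9874 (log2 change 1.59, adjusted p = 0.172). Col3a1 had a log2 change of 6.30 (4.98 with all libraries) without uninjured animal 79. Col4a1 had a log2 change of 3.99 (4.87 with all libraries) without WT SCI animal 9596. Anpep had a log2 change of 7.13 (7.79 with all libraries) without WT SCI animal 9843. At equal depth log2 changes were 7.29 for Fn1 (6.40 with all counts), 3.65 for Col1a1 (4.48 with all counts), 3.80 for Col1a2 (3.21 with all counts) and 6.52 for Anpep (7.79 with all counts).

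Endothelial and ependymal genes had few counts. The summed level of the endothelial list was 114 to 201 CPM in WT SCI and 134.2 to 165 CPM in uninjured libraries. Cldn5, Pecam1, Cdh5, Kdr and Tek, which define vascular endothelium, and Esam and Emcn of the same list had 0 counts in WT SCI and 2 to 42 over the uninjured libraries, and none of the 4 tested genes of that list was called (Itm2a, 3 counts in WT SCI, against 314 in uninjured libraries, log2 change -1.81 (adjusted p = 0.193)). In the fit of all 22 libraries 1 of 13 was called higher in flow-through, Flt1, a receptor for vascular endothelial growth factor (10 counts in WT SCI, against 8 in uninjured libraries, adjusted p = 0.00226). Ly6c1 and Vwf had 7 and 9 counts in WT SCI, against 28 and 119 in uninjured libraries, and log2 changes of 2.23 (adjusted p = 0.2) and 1.44 (adjusted p = 0.427) in that fit. Of the ependymal genes, Foxj1, the regulator of motile cilia, had 26.0, 12.1, 16.9 and 75.4 CPM in WT SCI libraries, against 19.98, 15.3, 6.86 and 15.2 CPM in uninjured libraries (log2 change 0.94, adjusted p = 0.237), and 0 of 4 tested were called. Dnah5, a ciliary dynein, had 0 counts in WT SCI, against 92 in uninjured libraries (adjusted p = 0.146).

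Genes that neurons switch on when their axons are cut were split, 3 of 12 higher and 3 lower. Atf3, a transcription factor induced in axotomised neurons and in many stressed cells, had 83.7, 109, 46.5 and 10.8 CPM in WT SCI libraries, against 0.0869, 0.612, 1.42 and 0.438 CPM in uninjured libraries (log2 change 6.90, adjusted p = 1.09e-08). Sprr1a, induced in axotomised sensory neurons, had 171, 153, 368 and 151 CPM in WT SCI libraries, against 4.08, 3.06, 0.947 and 0.875 CPM in uninjured libraries (log2 change 6.51, adjusted p = 2e-10). Neither overlapped between the groups. Sox11, a transcription factor of growing neurons, was 9.88-fold higher (adjusted p = 0.000205). Gap43, a protein of the growth cone, had 14.9, 88.6, 50.7 and 64.6 CPM in WT SCI libraries, against 132, 142, 210.4 and 212 CPM in uninjured libraries (log2 change -1.79, adjusted p = 0.00175). Basp1, a related protein, had 102, 60.4, 55.0 and 43.1 CPM in WT SCI libraries, against 215, 166, 194 and 169 CPM in uninjured libraries (log2 change -1.41, adjusted p = 0.00203). Both were lower in WT SCI without overlap. Flrt3 was 5.71-fold lower (adjusted p = 0.0112). Of 10 immediate early genes tested 2 were called higher and 1 lower. The count of higher genes was 1 without animal 9596 or uninjured animal 154 or 65. With WT libraries alone it was 0, as neither Atf3 nor Junb passed the count filter there. Arc, which active neurons induce, had 0 counts in all WT SCI libraries and 63.5, 22.96, 30.5 and 28.7 CPM in uninjured libraries, at least 15.8-fold lower (adjusted p = 7.39e-05, and 0.000288 without uninjured animal 42). Fos and Egr1 had log2 changes of -0.24 (adjusted p = 0.858) and 0.51 (adjusted p = 0.264), and Junb 2.69 (adjusted p = 0.0102). Junb was not called without WT SCI animal 9596 (log2 change 1.96, adjusted p = 0.164). Atf3 had a log2 change of 7.57 (6.90 with all libraries) without uninjured animal 79. Sprr1a had a log2 change of 7.14 (6.51 with all libraries) without uninjured animal 42. Sox11 had a log2 change of 1.89 (3.30 with all libraries) without WT SCI animal 9596. Sprr1a had a log2 change of 7.33 at equal depth (6.51 with all counts).

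Cell cycle genes were sparse. Of 18 genes 6 were tested and 3 called higher, against 8 of 18 in the fit of all 22 libraries. The 3 were Ube2c, Birc5 and Top2a, which act in mitosis, with 28, 23 and 16 counts in WT SCI and log2 changes of 5.60 (adjusted p = 5.27e-05), 3.27 (adjusted p = 0.00168) and 3.04 (adjusted p = 0.00757). Top2a was not called without WT SCI animal 9596 (log2 change 2.45, adjusted p = 0.0977). Without animal 9596, 1 gene of the list was called. With WT libraries alone 0 were, as none of the 3 called genes passed the count filter there. Ube2c had a log2 change of 5.00 (5.60 with all libraries) without uninjured animal 42. Ube2c had a log2 change of 6.201 without uninjured animal 65. Mki67, the proliferation antigen, had 30 counts in WT SCI, against 14 in uninjured libraries and was called higher in the fit of all 22 libraries (log2 change 5.31, adjusted p = 0.000147).

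Cholesterol synthesis enzymes were called lower for 9 of 19 and higher for 0, with a median log2 change of -1.48. Fdps, an early enzyme of the pathway, had 5.58, 0, 8.46 and 0 CPM in WT SCI libraries, against 24.3, 51.7, 63.0 and 46.7 CPM in uninjured libraries (log2 change -3.40, adjusted p = 0.000643). Sc5d, a late enzyme, had 5.58, 24.2, 4.23 and 0 CPM in WT SCI libraries, against 69.6, 77.4, 83.5 and 84.5 CPM in uninjured libraries (log2 change -3.09, adjusted p = 0.000234). Neither overlapped between the groups. Idi1, which acts just before Fdps, had 1 count in WT SCI, against 448 in uninjured libraries, a ratio of 17.7 with a 95% counting interval of 3.17 to 703, lower in WT SCI. Dhcr7, an enzyme of the last steps, had a log2 change of -0.01 (adjusted p = 0.992). Set against this, the export and storage genes Abca1 and Soat1 of the phagocyte list had log2 changes of 5.20 (adjusted p = 1.31e-11) and 2.80 (adjusted p = 1.94e-07). Sc5d had a log2 change of -4.12 (-3.09 with all libraries) without WT SCI animal 9843. Idi1 had a log2 change of -3.16 (-4.03 with all libraries) without WT SCI animal 9596. Idi1 had a log2 change of -8.75 without WT SCI animal 9874.

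Energy metabolism was lower in part. Of 24 genes of oxidative phosphorylation 13 were called lower and 1 higher. Atp5b, the catalytic subunit of ATP synthase, had 292, 346, 423 and 517 CPM in WT SCI libraries, against 2681, 3748, 3547 and 3298 CPM in uninjured libraries (log2 change -3.10, SE 0.31, adjusted p = 2.14e-08), whereas Atp5a1, the partner subunit, had a log2 change of -0.19 (adjusted p = 0.623). Ndufa4 and Cox5b were 3.58-fold and 3.48-fold lower (adjusted p = 6.84e-05 and 0.000105), and Ndufa2, the exception, 2.44-fold higher (adjusted p = 0.00711). Glycolysis gave 5 lower and 2 higher calls of 15. Hk2, an inducible hexokinase, had 106, 76.5, 42.3 and 10.8 CPM in WT SCI libraries, against 0.869, 2.75, 3.31 and 2.08 CPM in uninjured libraries (log2 change 4.89, adjusted p = 5.43e-07). Ldha, which makes lactate, had 409, 471, 736 and 291 CPM in WT SCI libraries, against 107, 139, 125 and 111 CPM in uninjured libraries (log2 change 2.00, adjusted p = 8.06e-06). Both were higher in WT SCI without overlap. Gapdh, often used as a loading control, was 3.39-fold lower, with 575, 765, 973 and 571 CPM in WT SCI libraries, against 1399.9, 3036, 2787 and 2592 CPM in uninjured libraries (adjusted p = 0.000179), and Pfkp and Pgk1 were 3.94-fold and 3.58-fold lower (adjusted p = 0.000164 and 0.000254).

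Ribosomal protein mRNAs were called higher for 51 of 78 tested and lower for 1 (3 without uninjured animal 42, 2 without animal 9843), with a median log2 change of 1.32 and summed levels of 42629 to 67166 CPM in WT SCI and 10026 to 21967 CPM in uninjured libraries. Rps12 had 1403, 2135, 2097 and 1916 CPM in WT SCI libraries, against 29.5, 133, 129 and 79.1 CPM in uninjured libraries (log2 change 4.35, SE 0.41, adjusted p = 6.13e-09). Noncoding RNAs of the nucleus and of small ribonucleoproteins were also higher, 6 of 8 tested. Malat1, a nuclear RNA of most cells, had 19959, 17751, 9590.3 and 12853 CPM in WT SCI libraries, against 5905, 1478, 2425 and 3407 CPM in uninjured libraries (log2 change 2.19, SE 0.35, adjusted p = 2.3e-05). Rpph1 and Rmrp, the RNA parts of ribonuclease P and of ribonuclease MRP, had log2 changes of 5.11 (adjusted p = 4.82e-08) and 4.43 (adjusted p = 6.75e-06). Kcnq1ot1 had a log2 change of 2.31 (adjusted p = 0.00959). Kcnq1ot1 was not called without WT SCI animal 9596 (log2 change 1.24, adjusted p = 0.252). Both groups of RNA rose in the libraries in which Rn45s rose, and the part of ribosomal RNA in it was not tested.

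**Figure D4:**
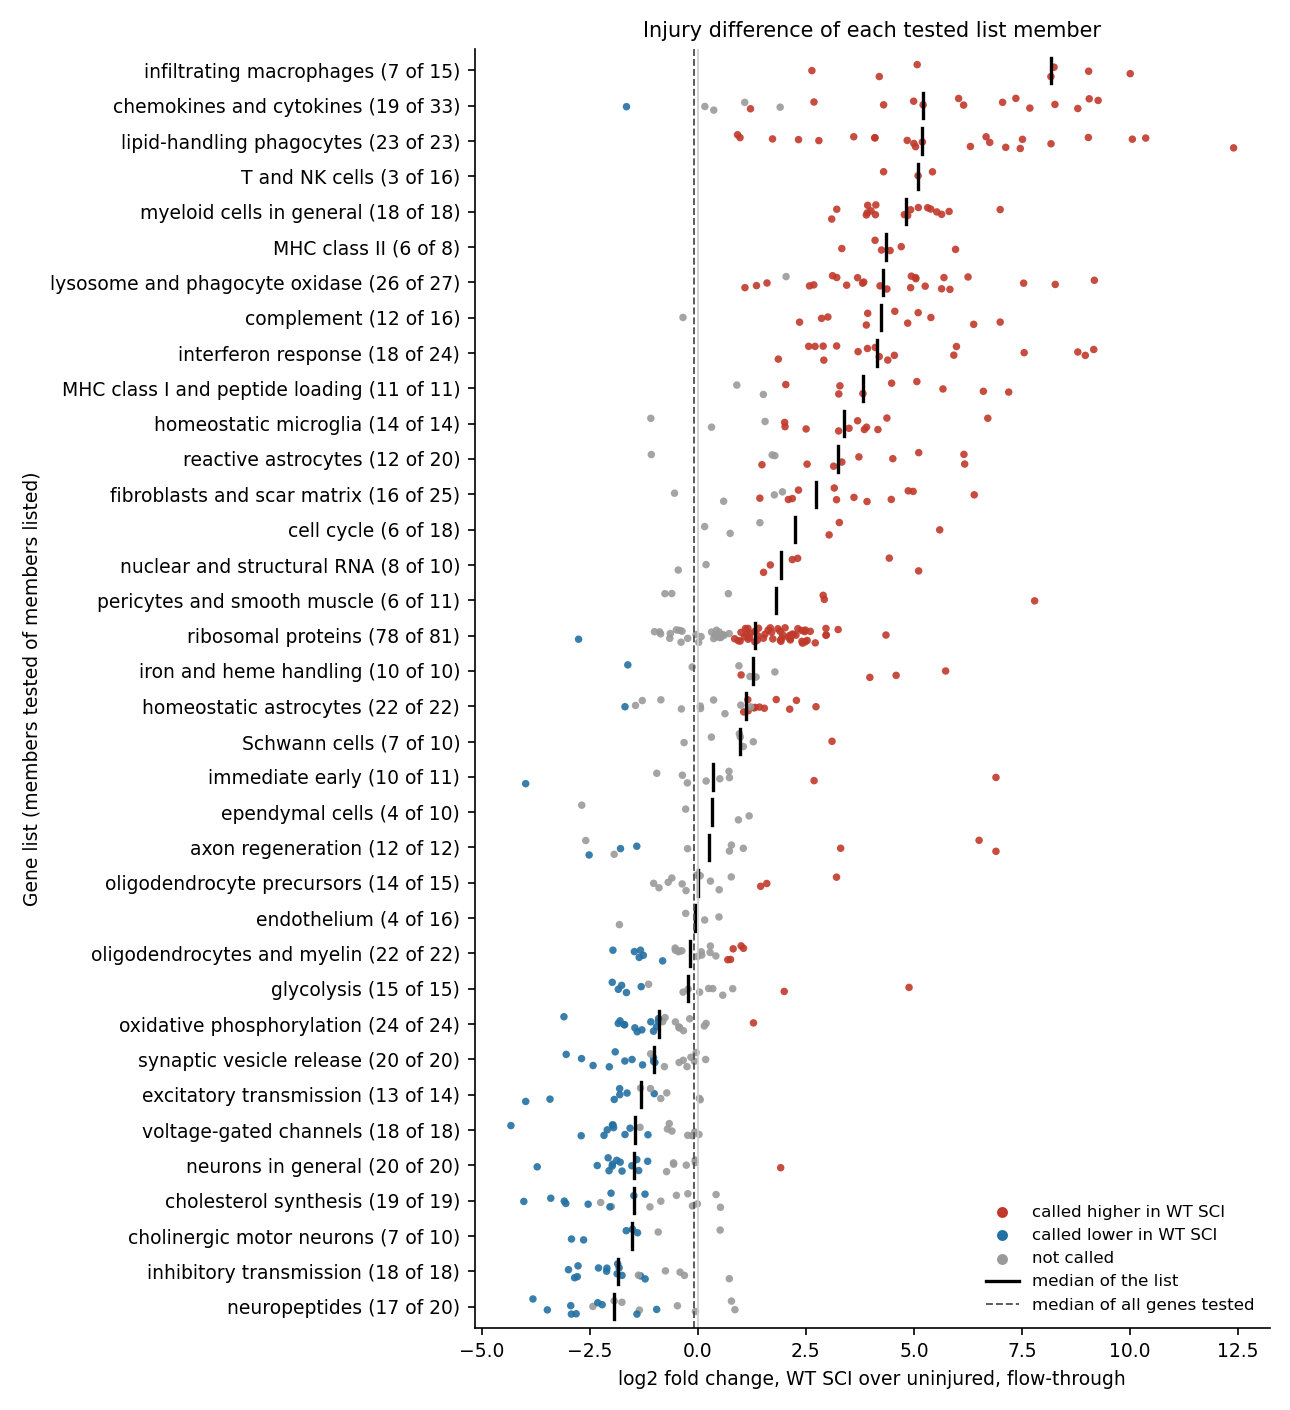
Log2 change (WT SCI minus uninjured flow-through) of every tested member of each gene list, one row per list, with called members coloured and the median marked, and the median of all genes tested as a dashed line; genes with 0 counts in a group stand at their bound. The medians of the phagocyte, lysosome and interferon lists lie to the right of the line and those of the neuronal lists to the left, with single members such as P2ry12 and Snhg11 on the other side, and myelin genes lie on both sides.

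HA IP libraries of the same animals allow the injury effect of flow-through to be set against that in the pulled-down fraction. Myeloid and many myelin genes also rose in HA IP, and carry-over between the fractions was not tested for any list. A changed separation of the fractions in injured cord and a changed response of the cells cannot be told apart. In the fit of all 22 libraries, 307 of 15142 genes (2.03%) had an injury effect more positive in flow-through and 405 (2.67%) less positive. The split between directions depended on the scaling: 405 and 258 under RLE scaling, 386 and 327 with the ribosomal rows removed, and 367 and 203 with WT libraries alone. With the animal as a block, which the design supports since both libraries come from the same tissue, the counts were 776 and 1158. Without uninjured animal 65 they were 156 and 164, without 79 they were 168 and 182, without 154 they were 165 and 203, and without 42 they were 201 and 255. Median log2 changes over all genes were -0.32 in flow-through and -0.01 in HA IP. Levels in the following sentences are on the scale of this fit, which is not that of the levels above.

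General myeloid genes rose in both fractions. All 18 were called higher in flow-through and in HA IP, with medians of 4.62 and 4.51, beside 16.4% of all genes called higher in HA IP, and 0 of 18 differed between the fractions. HA IP of injured cord thus also held myeloid RNA, and carry-over from flow-through was not tested. Lipid-handling phagocyte genes differed more, with 11 of 23 more positive in flow-through and 0 less (medians 5.00 in flow-through and 2.48 in HA IP). Apoe, which resting astrocytes express strongly, had log2 changes of 6.11 in flow-through and 0.84 in HA IP, a difference of 5.27 (SE 0.44, adjusted p = 4.17e-09). Its flow-through levels were 9923, 13732, 11882 and 5036 CPM in WT SCI, against 76.0, 166, 186 and 159 CPM in uninjured animals. In HA IP they were 5506, 7429.9, 12017 and 5424 CPM in WT SCI, against 3501, 4633, 4828 and 3960.0 CPM in uninjured animals, so the 2 fractions were near each other after injury and far apart without it. Lpl and Axl had differences of 5.56 (SE 0.58, adjusted p = 3.27e-07) and 4.02 (SE 0.39, adjusted p = 8.87e-08), and Lgals3 and H2-K1 of 4.92 (SE 0.72, adjusted p = 8.56e-05) and 3.77 (SE 0.48, adjusted p = 1.04e-05). Without uninjured animal 154 the difference of Lgals3 was 6.39.

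Astrocyte genes separated the fractions. Of 22 homeostatic astrocyte genes 12 were called higher and 3 lower in flow-through, and 1 higher and 12 lower in HA IP, and 12 were more positive in flow-through (17 with the block), with medians of 0.90 and -1.01. Aqp4 had flow-through levels of 1042, 605, 861 and 721 CPM in WT SCI, against 185, 117, 139 and 119.9 CPM in uninjured animals, and HA IP levels of 1554, 1359, 1581 and 1639 CPM in WT SCI, against 3189, 2722, 2218 and 2341 CPM in uninjured animals. Its levels were thus higher in flow-through and lower in HA IP after injury, with a difference of 3.30 (SE 0.36, adjusted p = 7.92e-07). Slc1a3 differed by 3.54 (SE 0.53, adjusted p = 0.000128), and Gfap, higher in both fractions, by 1.92 (SE 0.37, adjusted p = 0.00166). Gfap levels were 10786, 10979, 15534 and 19508 CPM in WT SCI, against 3793, 5755, 5394 and 3711 CPM in uninjured animals in HA IP, above those in flow-through in all 8 animals.

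Oligodendrocyte genes went the opposite way. Of 22 myelin genes 2 were called higher and 7 lower in flow-through, against 15 higher and 3 lower in HA IP, and 14 were less positive in flow-through (18 with the block), with medians of -0.39 and 1.31. Mbp had HA IP levels of 24658, 42603, 33181 and 35875 CPM in WT SCI, against 4163, 4542, 6164 and 4863 CPM in uninjured animals, and a difference of -2.17 (SE 0.31, adjusted p = 8.1e-05). Mog had a difference of -1.60 (SE 0.45, adjusted p = 0.033). Of 15 precursor genes 4 were less positive in flow-through (8 with the block). Klk6, a protease of oligodendrocytes, Apod, a lipid carrier of oligodendrocytes and astrocytes, and Slc1a1, a neuronal glutamate transporter, had differences of -3.67 (SE 0.58, adjusted p = 0.000202), -3.17 (SE 0.42, adjusted p = 2.27e-05) and -3.55 (SE 0.60, adjusted p = 0.000399). Klk6 had flow-through levels of 112, 71.6, 97.8 and 46.8 CPM in WT SCI, against 88.5, 139.7, 105 and 75.7 CPM in uninjured animals, and HA IP levels of 166, 351, 282 and 168 CPM in WT SCI, against 23.8, 22.5, 24.1 and 19.8 CPM in uninjured animals. Neuronal genes were less positive in flow-through for 3 of 20 (11 with the block), with medians of -1.66 in flow-through and -0.62 in HA IP. The call of Mog was lost without uninjured animal 154, 65 or 79 or WT SCI animal 9596 or 9843 and under 2 other settings (adjusted p = 0.069 to 0.131).

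Tmem56, a gene named for a negative difference at an average log2 CPM of 4 or more, differed by -4.03 (SE 1.11, adjusted p = 0.0289), and its WT SCI HA IP libraries differed widely among themselves. It had flow-through levels of 97.0, 25.1, 22.6 and 9.36 CPM in WT SCI, against 76.8, 23.6, 27.9 and 45.6 CPM in uninjured animals, and the groups overlapped. Its HA IP levels were 406, 1126, 6.31 and 2433 CPM in WT SCI, against 81.1, 44.4, 44.6 and 57.0 CPM in uninjured animals, low in animal 9874. The difference was -3.15 with the block and -5.45 without WT SCI animal 9596, and it was not called on leaving out WT SCI animal 9843 or 9935 or any 1 of the 4 uninjured animals (adjusted p = 0.0631 to 0.143), nor with WT libraries alone.

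**Figure D5:**
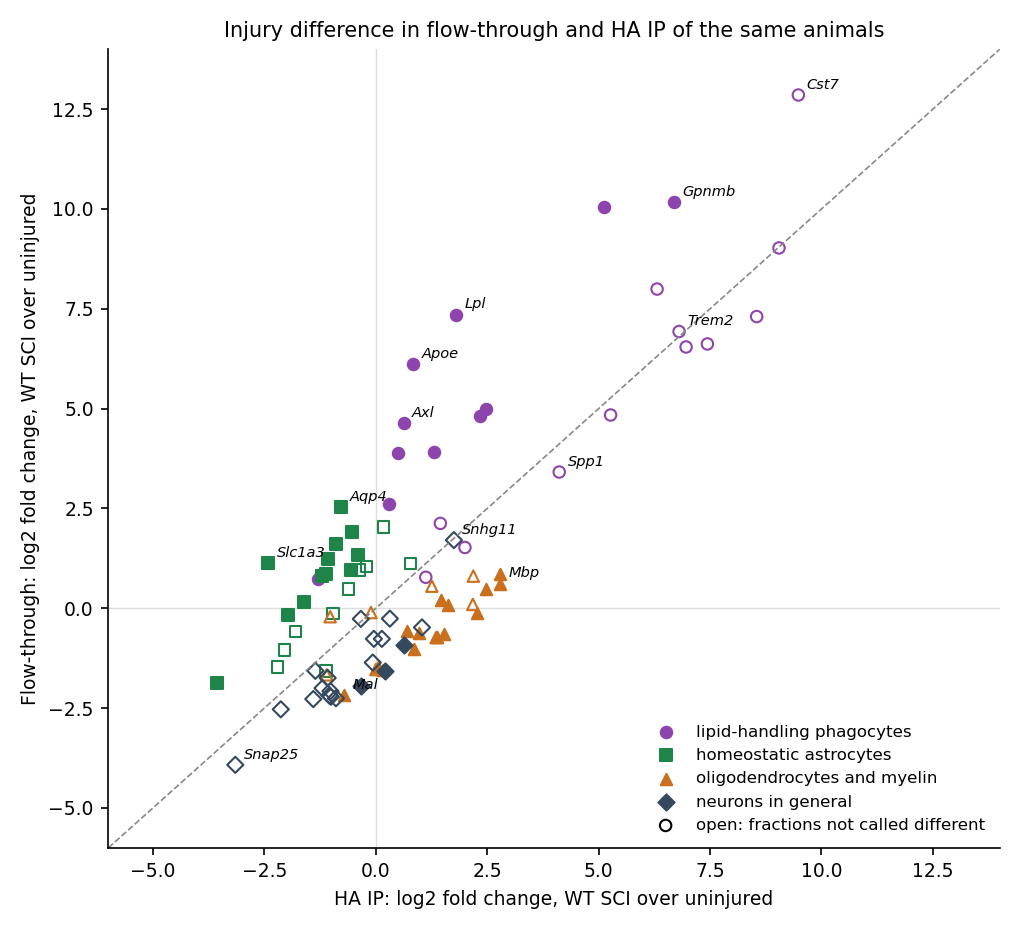
Injury effect (log2, WT SCI over uninjured) of members of 4 gene lists in flow-through (vertical axis) and HA IP (horizontal axis), from the fit of all 22 libraries, with open symbols where the fractions were not called different. Homeostatic astrocyte genes lie on the flow-through side of it (medians 0.90 and -1.01), and myelin genes on the HA IP side (medians -0.39 and 1.31).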

How the data were processed

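RNA from HA immunoprecipitates and their flow-through was sequenced from 11 mice (22 libraries), after DNase digestion, amplification of 5 ng RNA with the Ovation V2 kit and 10 cycles of PCR, per the labels' protocols. The submitters' processing notes name CASAVA 1.8.2, edgeR and the genome build mm10. For the aligner, the counter, the gene annotation and the use of strand, the entry is: not given in the sources used here. The deposited tables hold raw counts per gene made by the authors, for 24060 gene rows, 27 of which had symbols turned into dates (25 restored). They also hold log2 fold changes and p-values adjusted to a false discovery rate, both made by the authors and used here only for the comparison of calls. A further 146 columns with values per sample were left unused.

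Counts were tested with edgeR 4.0.16 (quasi-likelihood, TMM, filterByExpr with a minimum count of 10) in R 4.3.3, with the 11 flow-through libraries in a single fit and, between fractions, all 22 libraries. Adjusted p-values are Benjamini-Hochberg values over all genes tested, called under 0.05. They set a change against the spread between libraries of a group, which in the flow-through fit all come from different animals. The fit of all 22 libraries treats both fractions of an animal as independent, except where the animal block is named. Levels are CPM outside Rn45s, Lars2 and Mir6236. Intervals and floors (3 counts) cover counting error only. The fits were tested on simulated data, in which the expected share of ribosomal RNA was equal in all libraries, unlike in these data. Replicates differed by more than counting noise (chi-square per degree of freedom of 4.68 or more). The labels give both fractions of an animal the same number. Same-animal deviations correlated in all 11 animals (r from 0.231 to 0.804), so the animal block pairs the fractions.

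Named genes were up to 10 per direction with the largest called change, an average log2 CPM of 4 or more and no overlap of groups, up to 3 called members per direction of each list, fixed cell markers, and up to 5 genes per direction for the fraction difference. Other members of a list are named with their values as examples chosen after these were seen. The members and lists were chosen with earlier results of these data known. Alternatives were RLE and TMMwsp scaling, DESeq2 1.42.0, no filter, removal of ribosomal rows, thinning to 91626 counts, WT libraries alone, the replicate block and leaving out each animal. Some genes are not reported here.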

Additional observations from a re-analysis of the deposited data

Results flagged for a closer look

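Single animals stood apart within their group of 4 in 15 of 185 groups examined, by Dixon's criterion at 95% for the gap to the nearest animal; chance alone flags about 1 in 20 groups. Animal 9874 was high among WT SCI animals for Cst7 (752.7 CPM, against 256.8 to 333.7 CPM in the other 3), Cd3e (42.29 CPM, others 0 to 3.721 CPM), Sprr1a (367.9 CPM, others 150.7 to 171.2 CPM), P2ry12 (38.06 CPM, others 8.058 to 11.16 CPM) and the sum of the T and NK cell genes (186.1 CPM, others 56.4 to 66.98 CPM). Animal 9596 was high for Tmem255a (27.91 CPM, others 8.058 to 10.76 CPM) and for the sum of the neuropeptides (515.4 CPM, others 342.4 to 366.0 CPM). Animal 9935, the shallowest library, was high for Syt1 (258.4 CPM, others 16.91 to 50.24 CPM) and Slc1a1 (96.88 CPM, others 32.23 to 37.21 CPM), and animal 9843 for Nrsn2 (108.8 CPM, others 59.2 to 65.12 CPM).

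Among uninjured animals, 42 was low for Vsnl1 (2500 CPM, others 3210 to 3354 CPM), Apod (984.8 CPM, others 1529 to 1607 CPM) and the sum of the homeostatic astrocyte genes (5517 CPM, others 6760 to 6903 CPM), and high for Chat (45.69 CPM, others 22.65 to 24.85 CPM). Animal 79 was high for the sum of the Schwann cell genes (446.3 CPM, others 380.8 to 385.6 CPM).

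The injury effect differed between flow-through and HA IP, by the edgeR test of the difference, in 22 of the named genes reported here. More positive in flow-through were Lpl (difference of log2 changes 5.56, adjusted p = 3.27e-07), Apoe (5.27, 4.17e-09), Lgals3 (4.92, 8.56e-05), Pdgfrb (4.06, 0.0142), Axl (4.02, 8.87e-08), H2-K1 (3.77, 1.04e-05), Slc1a3 (3.54, 0.000128), Gpnmb (3.48, 0.00109), Aqp4 (3.30, 7.92e-07), Cyba (3.27, 0.0028), Bst2 (2.76, 0.00494), Tmem106a (2.10, 0.0329) and Gfap (1.92, 0.00166). Less positive in flow-through were Tmem56 (-4.03, 0.0289), Klk6 (-3.67, 0.000202), Slc1a1 (-3.55, 0.000399), Apod (-3.17, 2.27e-05), Mbp (-2.17, 8.1e-05), Hspa4l (-1.97, 0.0153), Tmem255a (-1.95, 0.0489), Mog (-1.60, 0.033) and Slc25a4 (-1.30, 0.0456). Beside the calls of Mog and Tmem56 described above, those of Tmem106a, Tmem255a, Hspa4l, Slc25a4 and Pdgfrb were lost on leaving out single animals (adjusted p = 0.0507 to 0.202). Tmem255a and Slc25a4 also lost theirs under RLE scaling, with the ribosomal rows removed and with WT libraries alone (adjusted p = 0.06 to 0.139).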

How the results depend on the processing

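Of 145 named genes called in flow-through, 127 kept their call in every alternative in which they were tested, and 17 lost it in at least 1, 16 of these on leaving out an animal. All WT SCI counts of Nkg7 were in animal 9874. Leaving out each animal in turn, its log2 change ranged from -2.19 (without WT SCI animal 9874) to 6.11 (without 9596). Among genes not called, that of Pdgfra ranged from -0.065 to 0.68, of Tmem56 from -0.86 to 0.64 and of Klk6 from -0.24 to 0.14. Thinned to equal depth, where 3071 genes passed the filter, 757 genes were called higher and 643 lower in flow-through; 87 of 89 named called genes that could be tested kept their call. Of these, 24 moved by over 1.5 times, 16 closer to 0 and 8 away from it, by up to 17.4 times for Cst7. Fewer genes were higher than lower under RLE scaling (1903 and 2085), TMMwsp scaling (1890 and 2067), DESeq2 (2154 and 2291) and with WT libraries alone (1611 and 2001). Leaving out each animal gave 1683 to 2212 genes higher and 1360 to 1791 lower. For the difference between fractions, the fit with the animal as a replicate block called 776 genes more positive and 1158 less positive in flow-through, against 307 and 405 without it. Less positive were 258 genes under RLE scaling and 203 with WT libraries alone. Leaving out each animal gave 156 to 380 genes more positive and 164 to 486 less positive. The difference of Lyz2, not called, was 0.092 under RLE scaling and 0.090 with WT libraries alone, with the cause not tested. Depth limits WT SCI libraries most: 415 genes tested had 0 counts there, and 10 in uninjured libraries.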
